A study of Mus musculus with 2 samples.

Results

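The 8 genes described here are 7 genes of CXC chemokines (Cxcl1, Cxcl2, Cxcl3, Cxcl9, Cxcl10, Cxcl16 and Pf4) and the receptor gene Cxcr4. They were chosen by name, with earlier results of these data known. All 8 were found among 55536 annotated genes, of which 22028 are protein-coding. Their RNA was measured by total RNA-seq after depletion of ribosomal RNA. The material was the nucleoplasmic fraction of BMDM, bone marrow-derived macrophages, which are primary cells grown here from marrow of strain C57BL/6J mice. The cells had been given 100 ng/ml of lipid A for 25 min. TLR4, the receptor for bacterial lipopolysaccharide, binds that molecule through its lipid A portion. Another label calls the fraction nuclear, and age and sex of the animals are recorded as not collected. Both libraries form 1 group, with biological replicate numbers 1 and 2, and both carry the same donor entry, so the spread between them may be partly technical. No library of unstimulated cells, of another time or of another fraction was analysed here. The levels below are therefore levels in stimulated cells, and no change upon lipid A can be read from them.

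CXC chemokines are small secreted proteins named for a pair of conserved cysteines with another residue between them. CXCL1, CXCL2 and CXCL3 carry an ELR motif and draw neutrophils through the receptor CXCR2. CXCL9 and CXCL10 lack that motif, are induced by interferons and draw T cells and NK cells through CXCR3. CXCL16 is made as a membrane protein, binds CXCR6 and also takes up oxidised lipoprotein. PF4, or CXCL4, is best known as a protein of platelet granules. CXCR4 is the receptor of CXCL12 and holds leukocytes in the marrow. In macrophages the ELR chemokine genes belong to the early NF-kB targets of TLR4, and Cxcl10 is also a target of the interferon response that TLR4 starts.

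The sequences before the gene starts are shown for the 4 members whose promoter windows hold a match to an NF-kB type motif, because the levels reported below differ widely between genes that share this match. The windows are from RefSeq, build GRCm38.p6, and run from 250 bases before the start to 50 bases after it. RefSeq had an entry for 7 of the 8 members, and Cxcl16 is only named. Position -1 is the base just before the RefSeq start. In Cxcl2 that start lies inside the gene of the GENCODE M21 annotation, which begins at chr5:90903871. The last bases shown for Cxcl2 therefore fall within the annotated gene. Shown are positions -120 to -21 of Cxcl1 (chr5:90891125-90891224, plus strand), Cxcl2 (chr5:90903779-90903878, plus strand) and Cxcl3 (chr5:90785981-90786080, plus strand), and positions -220 to -21 of Cxcl10 (chr5:92348910-92349109, minus strand). They are written 5′ to 3′ on the gene's strand, and capitals mark matches to any of the 4 motifs searched.
Cxcl1: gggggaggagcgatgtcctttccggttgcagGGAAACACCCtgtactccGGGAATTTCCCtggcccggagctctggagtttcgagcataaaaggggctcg
Cxcl2: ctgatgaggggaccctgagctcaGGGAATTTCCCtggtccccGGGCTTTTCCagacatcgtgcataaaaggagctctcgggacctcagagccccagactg
Cxcl3: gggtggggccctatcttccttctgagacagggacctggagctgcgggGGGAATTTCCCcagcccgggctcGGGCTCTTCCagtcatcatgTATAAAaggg
Cxcl10: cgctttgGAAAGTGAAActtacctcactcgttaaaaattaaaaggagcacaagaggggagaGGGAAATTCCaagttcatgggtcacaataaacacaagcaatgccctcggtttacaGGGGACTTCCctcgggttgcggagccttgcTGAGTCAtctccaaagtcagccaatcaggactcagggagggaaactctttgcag

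The motifs were searched on both strands, and a palindromic match counts on both. The NF-kB type, GGG, any 3 bases and TTCC, was found in 4 of the 7 members with a window, against 5.56% of all 32851 promoter windows of the same length. The same run GGGAATTTCC starts at -71 in Cxcl1, at -97 in Cxcl2 and at -73 in Cxcl3, and in each it overlaps its own match on the minus strand by all but 1 base. A second match of this type, separate from the first, lies in each of these genes, at -89 on the minus strand in Cxcl1, at -78 in Cxcl2 and at -50 in Cxcl3. Since the RefSeq start of Cxcl2 lies inside its GENCODE M21 gene, its positions are not directly comparable with those of Cxcl1 and Cxcl3. Cxcl10 holds GGGAAATTCC at -159 and GGGGACTTCC at -104. It was also the one member with a match to the interferon-stimulated response element type, GAAA, any 2 bases and GAAA, at -213, which 3.44% of all windows hold. The TATA type TATAAA was found in Cxcl3 and Cxcr4, at -30 in both, and in Cxcl9, at -195, against 13.6% of all windows. The AP-1 type, TGA, any 1 base and TCA, was found in Cxcl10, at -74, and in Cxcl9, 31 bases after the start, against 7.81% of all windows. A match describes letters and not a bound site, and the windows of Pf4, Cxcl9 and Cxcr4 hold no NF-kB type match within these bases.

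**Figure D1:**
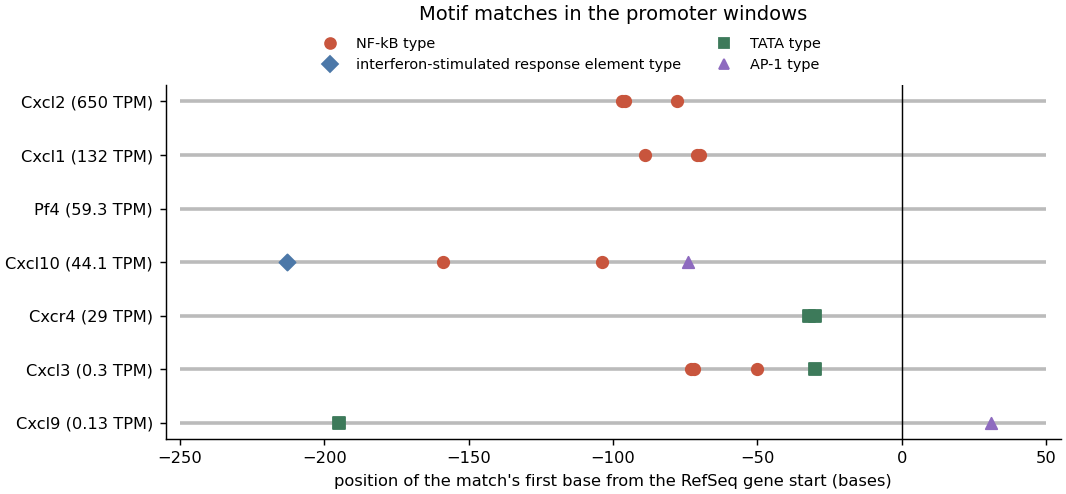
Positions of motif matches in the promoter windows of the 7 members with a RefSeq entry, in bases from the RefSeq start at 0. Genes are ordered from top to bottom by mean level in TPM. The NF-kB type appears in Cxcl2, Cxcl1 and Cxcl10, and also in Cxcl3, whose mean level was 0.3 TPM.

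Levels are given as TPM, which scales counts by gene length and library size, and as estimated counts. Both come from the authors' gene tables, which hold 13506939 counts over annotated genes in replicate 1 and 17932332 in replicate 2. The starting amount of RNA was 500 ng for replicate 1 and 1 µg for replicate 2, per the labels. A gene was called detected at 1 TPM or more in both libraries, as 44.5% of protein-coding genes were. Of the 8 members, 6 were detected, and Cxcl3 and Cxcl9 were not. The median level of the 8 members was 5.57 ± 0.23 on the log2(TPM + 1) scale, against 0.67 ± 0.22 over all protein-coding genes (SD, n = 2). Since the members were chosen with earlier results of these data known, their high detection and median may partly restate that choice. Of 8 CXC ligand genes outside the members, 0 were detected. All 8 macrophage markers examined were detected, the highest being Lyz2, lysozyme, with 1708 and 1588 TPM.

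Cxcl2, the neutrophil chemokine also called MIP-2, was the highest member. It had 607 TPM from 11170.0 counts in replicate 1 and 693 TPM from 20579 counts in replicate 2, a mean of 649.9 ± 61.2 TPM (SD, n = 2), and stood above 99.8% and 99.9% of protein-coding genes. Cxcl1, also called KC, had 133 TPM from 2213 counts and 132 TPM from 3752 counts, a mean of 132 ± 0.948 TPM. The TPM of Cxcl2 was 4.56 and 5.27 times that of Cxcl1, so the order of these neighbouring genes was the same in both libraries. Cxcl3, the remaining ELR member, had 0.36 TPM from 8.01 counts in replicate 1 and 0.24 TPM from 11 counts in replicate 2. Its exact 95% Poisson intervals were 0.155 to 0.708 TPM and 0.119 to 0.428 TPM, and cover counting error only. The TPM of Cxcl2 was 1685 and 2888 times that of Cxcl3, and the TPM of Cxcl1 was 369 and 548 times that of Cxcl3.

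Among the members that act through CXCR3, Cxcl10 had 31.5 TPM from 532 counts in replicate 1 and 56.6 TPM from 1597 counts in replicate 2, a mean of 44.1 ± 17.7 TPM. Cxcl9 was near the limit of the libraries, with 0.05 TPM from 2 counts and 0.21 TPM from 13 counts. The Poisson intervals of Cxcl9 were 0.00606 to 0.181 TPM and 0.112 to 0.359 TPM. The TPM of Cxcl10 was 631 and 269.7 times that of Cxcl9, and the smaller count of Cxcl9 in replicate 1 makes the first ratio the less certain. Cxcl10 lies wholly within Art3, a gene on the opposite strand, which had 24 and 67.5 counts. The sources used here do not give the strand setting of the counting, so reads of these overlapping genes may not be separated.

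Cxcl16 had 46.6 TPM from 1428 counts and 58 TPM from 2884 counts, a mean of 52.3 ± 8.1 TPM. It overlaps Zmynd15, on the opposite strand, by 552 bases, or 9.2% of its span, and Zmynd15 had 151 and 329 counts. Pf4 had 70.3 TPM from 246 counts and 48.3 TPM from 323 counts, a mean of 59.3 ± 15.5 TPM. The transcripts of Pf4 are short, and by counts scaled to library size alone it lay below Cxcl16, Cxcl10 and Cxcr4. Of 8 markers of megakaryocytes and platelets, 2 were detected, with a summed level of 15 and 11.4 TPM over the whole list. The highest was Treml1, a platelet receptor, with 10.4 and 8.17 TPM, and Ppbp, the platelet chemokine CXCL7 encoded next to Pf4, had 0.42 and 0.39 TPM. The part of such cells in the level of Pf4 was not tested. In a bulk sample, fewer cells of a type and less RNA per cell cannot be told apart. Cxcr4 had 36.9 TPM from 770.0 counts and 21 TPM from 781 counts, a mean of 29 ± 11.3 TPM.

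In order of mean TPM the members ran Cxcl2, Cxcl1, Pf4, Cxcl16, Cxcl10, Cxcr4, Cxcl3 and Cxcl9. Gene levels include all annotated transcripts, and only Cxcl1, Cxcl2, Cxcl3 and Cxcl10 have an unspliced one over the whole gene. It held a mean of 51.9%, 46%, 39.1% and 36.6% of their TPM, in that order. Levels of these members are therefore not fully comparable with those of the others. The spliced coding transcripts Cxcl2-201, Cxcl1-201 and Cxcl10-201 alone had means of 236, 63.6 and 22.1 TPM. That of Cxcl10 lay below Cxcr4-201, with a mean of 27.6 TPM, though their libraries overlapped. The full effect on the order, the ratios and the ligand shares was not tested. The order of Pf4 and Cxcl16, and that of Cxcl10 and Cxcr4, differed between the libraries and is not resolved. Cxcl16 was above Cxcl10 within each library, with 46.6 against 31.5 TPM and 58 against 56.6 TPM. In replicate 2 their counting intervals overlapped, at 56 to 60.2 and 53.9 to 59.5 TPM. Pf4 and Cxcr4, at the ends of this middle group, did not overlap. The step down from Cxcr4 to Cxcl3 was the widest between neighbours, at 96.5-fold between the means. Cxcl3 and Cxcl9 did not overlap, but their counting intervals did, and in the authors' alignment-free table Cxcl9 was above Cxcl3. In that table the levels of most members were lower, with means of 205 ± 114 TPM for Cxcl2, 41.3 ± 25 for Cxcl1, 33 ± 26.9 for Pf4, 22.3 ± 11 for Cxcl16, 12.4 ± 3.1 for Cxcl10 and 10.9 ± 9.41 TPM for Cxcr4, while Cxcl9 was higher, at 0.501 ± 0.466 TPM (SD, n = 2 each). After TPM was rescaled there without mitochondrial genes and genes under 200 bases, Cxcl2 was at 468 ± 69.8 TPM, Cxcl1 at 92.5 ± 8.48 TPM and Cxcl10 at 31.9 ± 14.9 TPM. With the same rescaling the gene table gave 935 ± 77.1 TPM for Cxcl2, 190.4 ± 3.62 for Cxcl1 and 63.3 ± 24.8 for Cxcl10. On like terms the alignment-free levels of these members were therefore still lower. The order of the 6 detected members was the same in both tables. The 7 ligand genes took 0.115% and 0.163% of all counts, and Cxcl2 alone gave 71.1 ± 0.73% of that sum. Cxcl1 gave 13.5 ± 0.933%, Cxcl16 9.52 ± 0.52%, Cxcl10 4.44 ± 1.46% and Pf4 1.34 ± 0.332% of the ligand counts (SD, n = 2 each).

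**Figure D2:**
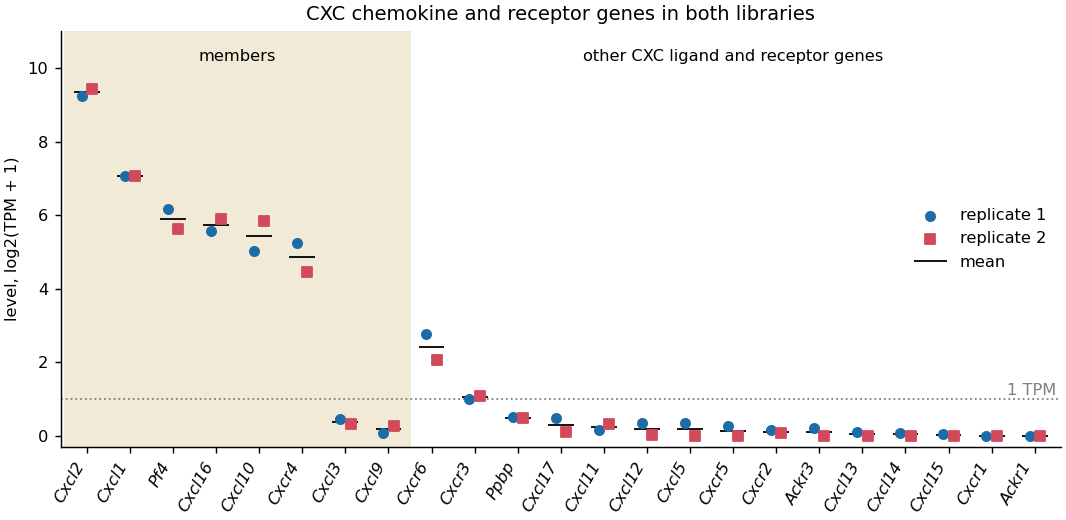
Level on the log2(TPM + 1) scale of the 8 members (shaded) and of 15 other genes of CXC ligands and their receptors, with circles for replicate 1, squares for replicate 2 and a line at their mean. Of the members 6 lie between 21 and 693 TPM, and Cxcl3 and Cxcl9 lie below the dotted line at 1 TPM with most of the other genes.

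In the gene table, the rest of the family was mostly not detected. Of 8 other ligand genes, 0 reached 1 TPM in both libraries, and 4 were at 0 counts in replicate 2, where 0 counts allow up to 3 counts, or a CPM, counts scaled to library size, of 0.167. The highest were Ppbp, Cxcl17, a mucosal chemokine, with 0.4 and 0.08 TPM, and Cxcl11, annotated in GENCODE M21 as a polymorphic pseudogene, with 0.11 and 0.25 TPM. This order held in the gene table only, since in the alignment-free table Cxcl15, with 1.63 and 0.232 TPM, and Cxcl5, with 1.48 and 0.195 TPM, were the highest, and Ppbp had 0.228 and 0.0692 TPM. Of 7 other receptor genes 2 were detected in the gene table. Cxcr6, the receptor of CXCL16, had 5.74 TPM from 132 counts and 3.16 TPM from 125 counts. Cxcr3, the receptor of CXCL9 and CXCL10, was at the limit, with 1.01 TPM from 21 counts and 1.1 TPM from 39 counts. In the alignment-free table Cxcr6 had 2.89 and 0.675 TPM and Cxcr3 0.39 and 0.193 TPM, and neither reached 1 TPM in both libraries. The third by mean level in the gene table, Cxcr5, a receptor of B cells, had 0.21 and 0 TPM. Cxcr2, the receptor of the ELR chemokines, had 4 and 3 counts there. In the alignment-free table Cxcr2 had 282 and 153 counts, or 2.17 and 0.373 TPM. In the gene table Cxcr1 and Ackr1, a decoy receptor, had 0 counts in both libraries. Of 8 neutrophil markers 2 were detected, the highest being S100a9, a calcium-binding protein, with 1.72 and 1.58 TPM.

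Genes whose proteins act with these chemokines were detected in 9 of 11 cases, with a median of 5.54 ± 0.16 on the log2(TPM + 1) scale (SD, n = 2). The highest was Sdc4, syndecan 4, a heparan sulfate proteoglycan of the cell surface, with 360.0 and 425 TPM. Arrb2, beta-arrestin 2, which ends receptor signalling, had 133 and 130.2 TPM. Cd74, which is a receptor of the cytokine MIF and can pair with CXCR4, had 89.2 and 83.5 TPM, and Mif itself had 4.63 and 8.14 TPM. The receptor kinase gene Grk2 had 77.1 and 44.4 TPM, and Gnai2, a G protein subunit that chemokine receptors couple to, had 55.9 and 41.8 TPM. Of the proteases that shed CXCL16 from the membrane, Adam17 had 49.3 and 53 TPM and Adam10 had 24.3 and 15.8 TPM. Mmp12, a macrophage elastase that cleaves ELR chemokines, had 36.8 and 26 TPM. Dpp4, which trims CXCL10 and CXCL12, and Mmp9 were not detected in both libraries.

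Of the 8 members, 6 lie in 2 clusters of chromosome 5 (assembly mm10). The first cluster, chr5:90759360-90905938, spans 147 kb and holds 7 CXC ligand genes among 11 annotated genes, in the order Cxcl5, Ppbp, Pf4, Cxcl3, Cxcl15, Cxcl1 and Cxcl2. Of these 7 ligand genes, 3 were detected, and of the 4 other genes between them 0 were. The detected genes were not all neighbours. Cxcl1 and Cxcl2 are 10.8 kb apart with no other ligand gene between them, while Pf4 is 2.37 kb from Ppbp and 12.7 kb from Cxcl3, both of which were under 1 TPM. Cxcl3 lies 102 kb before Cxcl1. The second cluster, chr5:92321347-92365485, spans 44.1 kb and holds Cxcl9, Cxcl10 and the polymorphic pseudogene Cxcl11, of which only Cxcl10 was detected. It is 18.6 kb from Cxcl9 and 10.7 kb from Cxcl11. Art3, an ADP-ribosyltransferase gene, was the only other gene detected there, with 1.4 and 1.87 TPM. Cxcl16 (chr11:70453983-70459984, minus strand) and Cxcr4 (chr1:128588199-128592293, minus strand) lie elsewhere.

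**Figure D3:**
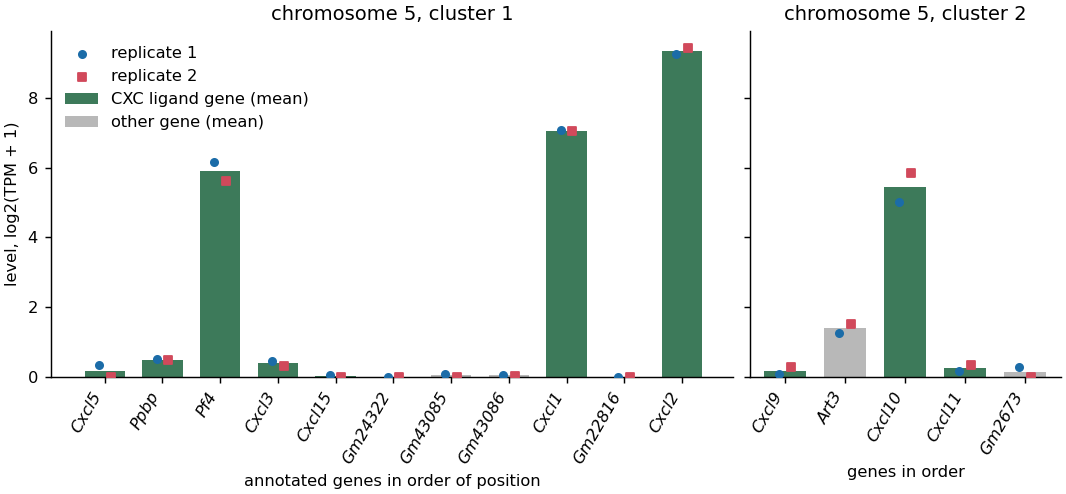
Level on the log2(TPM + 1) scale of every annotated gene in the 2 chemokine clusters of chromosome 5, in order of position and not to scale along the chromosome, with bars for the mean and points for the libraries. In the first cluster Pf4, Cxcl1 and Cxcl2 stand out among genes under 1 TPM, and in the second Cxcl10 stands above Art3, at 1.4 and 1.87 TPM, and the 3 other genes, under 1 TPM.

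Cxcl2 and Cxcl3 are close copies, and a contiguous run of 157 bases is common to their transcripts, against at most 23 bases between any other pair of members. Windows of 50 bases found in both numbered 126, which is 3.51% of the windows of Cxcl3 and 5.84% of those of Cxcl2. The assignment of reads between them had a posterior standard deviation of 0.11 counts in replicate 1 and 0.21 in replicate 2 for each gene, as the authors' quantifier gave it. In the alignment-free table the count of Cxcl3 was 9.58 and 2.51 times that of the gene table, and that of Cxcl9 was 50.8 and 5.11 times, against a median of 1.85 and 1.38 over all countable genes, which are those with 10 counts or more in each library. Of the counts of Cxcl3 in the alignment-free table, 75.3 and 25.4 were in Cxcl3-202, a transcript of 1 unspliced exon. The spliced coding transcript Cxcl3-201 had 1.44 and 2.26 counts there, against 2.69 and 2.52 in the aligned data. The TPM of Cxcl2 was 528 and 1718 times that of Cxcl3 in that table, and the TPM of Cxcl10 was 17.6 and 59.6 times that of Cxcl9. Both low members stayed under 1 TPM there.

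In Cxcl1, Cxcl2 and Cxcl10 most counts were assigned to transcripts annotated as retaining introns. Such a transcript is annotated for 7 of the 8 members, and Cxcr4 has none. In nucleoplasmic RNA, its counts cannot be told apart from those of RNA not yet spliced. In Cxcl1, 71% and 70% of counts were assigned to the retained-intron transcript. In Cxcl2 the share was 66.3% and 67.3%, and in Cxcl10 it was 59.6% and 63.8%. These 3 members had a share of at least 50% in both libraries, as did 11.9% of the 6881 countable protein-coding genes that have such a transcript. The median over those genes was 17.4%, with quartiles of 5.84% and 37%. The mean share of Cxcl1 stood above 94.8% of them, that of Cxcl2 above 93.4% and that of Cxcl10 above 91.5%. Pf4, with 14.4% and 20.7%, and Cxcl16, with 8.18% and 19.4%, stood above 50.4% and 44% of these genes. In the alignment-free table the share was higher for both, at 29.8% and 32.5% for Pf4 and 26% and 34.1% for Cxcl16, while it was 66% to 71% in Cxcl1, Cxcl2 and Cxcl10. Cxcl3 had 66.4% and 77.2%, from its few counts, and Cxcl9 had 0 counts in such a transcript. Over all members together, the share was 59.1 ± 1.98% of counts (SD, n = 2). The share of counts favours long transcripts, and as a share of TPM it was 50.6 ± 2.96%. By share of TPM, 2 members reached 50% in both libraries, Cxcl1 with 52.2% and 51.5% and Cxcl2 with 56.4% and 58%, as did 14.9% of the 6881 genes. Cxcl10 did not, with 43.8% and 51.4%. On this measure the median over those genes was 29.3%, and Cxcl1 stood above 82.9%, Cxcl2 above 87.2% and Cxcl10 above 78.3% of them. The share of TPM gives more weight to short transcripts than the share of counts does. Cxcl2 passed 50% only with Cxcl2-204, of 397 bases, which had 138 and 451 counts but 9.06% and 13.2% of TPM. Its longer retained-intron transcript, Cxcl2-203, took 47.3% and 44.7%.

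In Cxcl1, Cxcl2, Cxcl3 and Cxcl10 a retained-intron transcript is a single unspliced exon over at least 90% of the gene. Such a whole-gene transcript is annotated for 30 of 20568 protein-coding genes with a spliced transcript, or 0.146%, and these members are 4 of the 30. Most of the 6881 genes used above therefore lack one, so the ranks among them compare genes with unlike annotations. The transcript Cxcl1-202 held 51.9 ± 0.484% of the gene's TPM, Cxcl2-203 held 46 ± 1.83% and Cxcl10-204 held 36.6 ± 0.838% (SD, n = 2 each). The 15 such genes that were countable include Cxcl1, Cxcl2 and Cxcl10. The median of the 15 was 46%, which is also the value of Cxcl2-203, with quartiles of 25.7% and 71.4%. The 3 members stood above 53.3%, 46.7% and 33.3% of these genes, in the order Cxcl1, Cxcl2 and Cxcl10. These ranks therefore partly set the members against themselves. Cxcl1-202 had 1572 and 2626 counts with a posterior standard deviation of 18.2 and 23 counts, and Cxcl2-203 had 7267 and 13394 counts with 121 and 119.

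**Figure D4:**
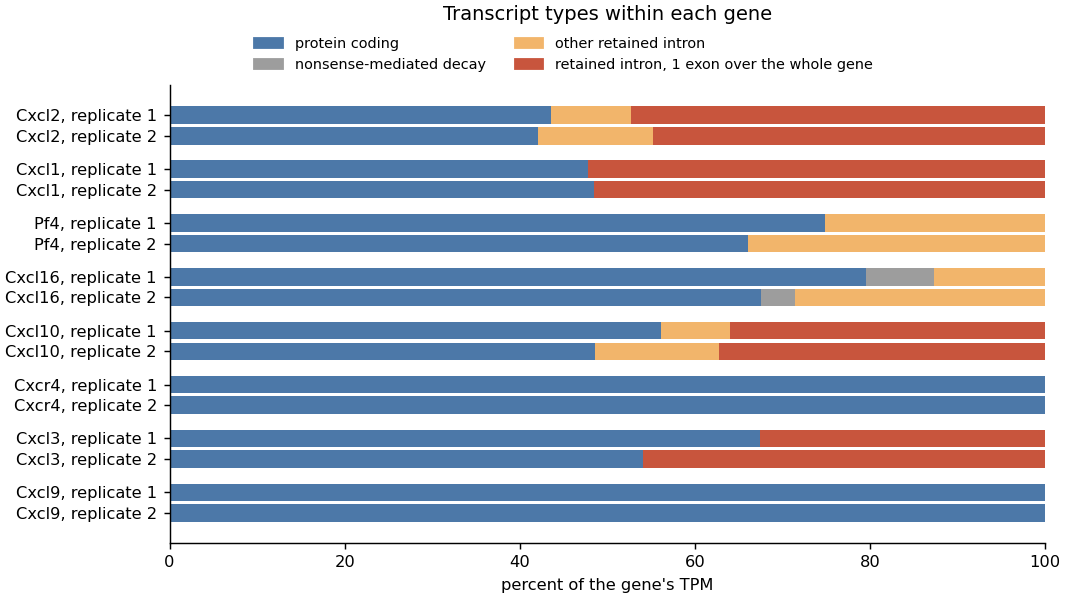
Percent of each member's TPM by transcript type, with 1 bar per library and members ordered from top to bottom by level. The unspliced whole-gene transcript takes 52.2% and 51.5% of Cxcl1, 47.3% and 44.7% of Cxcl2 and 36% and 37.2% of Cxcl10, and Cxcr4 and Cxcl9 show only protein-coding transcripts.

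The introns of the ELR members match each other in length, with 89, 115 and 718 bases in Cxcl1, 92, 117 and 748 in Cxcl2 and 92, 118 and 765 in Cxcl3. Those of Cxcl10 are 538, 194 and 419 bases long. Of the TPM of transcripts that span an intron, those that keep it held 46 ± 1.83%, 57.2 ± 1.12% and 59.1 ± 3.24% for the first, the second and the third intron of Cxcl2. These values were 36.6 ± 0.838%, 41.2 ± 3.04% and 42.7 ± 2.66% for the introns of Cxcl10 in the same order. In Cxcl2 partly spliced transcripts add to the whole-gene one, since Cxcl2-202 keeps the third intron alone and Cxcl2-204 keeps the second. In Cxcl16 the one intron kept in any annotated transcript was the second, of 201 bases, in 12.7% and 28.5% of TPM, and in 36.9% and 45.9% in the alignment-free table. All 12 introns of Cxcl1, Cxcl2, Cxcl3 and Cxcl10 start with GT and end with AG. Between Cxcl2 and Cxcl3 the letters differ at the 3′ junction of the second intron and at both junctions of the third. The 5′ junction of the second intron is the same. The junctions of the first intron are shown because Cxcl2 and Cxcl3, which differ so widely in level, have the same letters at both ends there. Each is 10 exon and 12 intron bases at the 5′ end, or 12 intron and 10 exon bases at the 3′ end, with the GT or AG of the intron in capitals, read from GENCODE M21 transcripts on the plus strand (mm10). The introns lie at chr5:90891381-90891469 in Cxcl1, chr5:90904024-90904115 in Cxcl2 and chr5:90786250-90786341 in Cxcl3.
Cxcl1 5′ junction: ctggccacagGTaggtctcgcc
Cxcl2 5′ junction: caggctacagGTgggattcgga
Cxcl3 5′ junction: caggctacagGTgggattcgga
Cxcl1 3′ junction: cttctcccatAGgggcgcctat
Cxcl2 3′ junction: cttctcctacAGgggctgttgt
Cxcl3 3′ junction: cttctcctacAGgggctgttgt

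The ELR members also share AU-rich ends. The pentamer AUUUA, which marks short-lived mRNAs of cytokines, occurs 11 times in the 734 bases of the 3′ UTR of Cxcl2-201, or 15 per kb, a density above 99.8% of 9063 detected protein-coding genes with a 3′ UTR of at least 100 bases. Cxcl1-201 has 7 in 592 bases, or 11.8 per kb, above 99.5%, and Cxcl3-201 has 5 in 645 bases, or 7.75 per kb, above 98.2%. Over those genes the median is 1.37 per kb, and 30.3% have none. Cxcl10 has 2.74 per kb, Cxcr4 1.55, Cxcl16 1.41 and Cxcl9 1.22 per kb, while Pf4 has 8.13 per kb from 1 pentamer in 123 bases. The densest 30 bases of each ELR member are shown in DNA letters, from GENCODE M21 and on the gene's strand, with the pentamers in capitals. Cxcl3, under 1 TPM here, has this feature too, and stability was not measured.
Cxcl1: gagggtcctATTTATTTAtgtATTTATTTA
Cxcl2: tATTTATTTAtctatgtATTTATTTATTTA
Cxcl3: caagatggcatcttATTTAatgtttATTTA

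The libraries were compared only as replicates, with 1 library on each side and so with no test. Across the 14584 countable genes, the median of the log2 ratio of replicate 2 to replicate 1 (TPM + 1) was -0.42, and differences are given after subtracting it. Cxcl10 was higher in replicate 2 by 1.25, Cxcl16 by 0.73, Cxcl2 by 0.62 and Cxcl1 by 0.41 on the log2 scale. Pf4 was at -0.11 and Cxcr4 at -0.36. The median of these 6 members was 0.51, against 0 for all countable genes by construction. Cxcl10 was the one member beyond 2-fold, as were 1.22% of countable genes upward, 0.487% downward and 1.71% either way. With no median subtracted Cxcl10 was at 0.82 and in the alignment-free table at 0.71, so it is within 2-fold under both, and at 1.39 with TMM or DESeq2 scaling. The sign of 3 members depended on the table or the scaling, with Cxcl1 at -0.10 and Cxcl2 at -0.01 in the alignment-free table, Cxcl1 at -0.01 with no median subtracted and Pf4 at 0.20 with TMM or DESeq2 scaling. The TMM and DESeq2 values are ratios of counts with no pseudocount, so they differ from the main values in more than the scaling. The amount of RNA put into the libraries, which differed between them, cannot be told apart from other differences between the replicates.

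**Figure D5:**
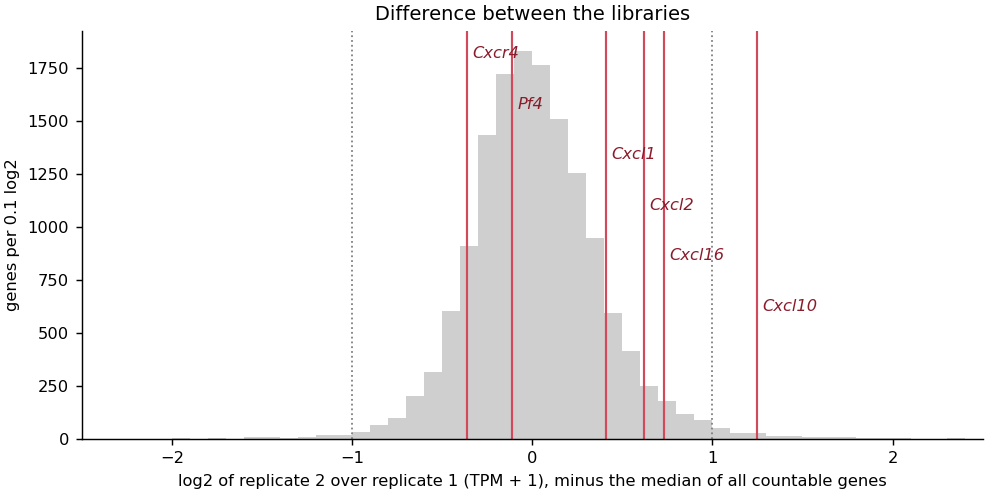
Number of genes by log2 ratio of replicate 2 to replicate 1 (TPM + 1) minus the median over 14584 countable genes, in bins of 0.1, with red lines for the 6 countable members and dotted lines at 2-fold. Cxcl10 lies beyond the upper dotted line at 1.25, and Cxcr4 lies farthest to the left at -0.36.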

How the data were processed

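The data are 2 libraries of total RNA after ribosomal RNA depletion. The authors aligned reads to the transcriptome (assembly mm10, annotation M21) and deposited expected counts and TPM per gene and per transcript, per the readme. The same deposited transcript tables give each transcript's percent of the TPM of its gene, which was recomputed here. A further table the authors deposited, called alignment-free, has estimated counts and TPM quantified from reads and an index. The sources used here name no quantifier. Other columns the authors deposited, lengths and the posterior SD of counts, were used as they stand. Reads shared by close copies or overlapping genes are split by the quantifier, so such counts are uncertain.

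Values here are means ± SD over 2 libraries. With 1 group there is no comparison between conditions and no p-value. Members and gene lists were chosen with earlier results of these data known. Genes named beside the members are the 3 highest of each list and every one detected, the detected genes of a cluster, and the highest marker of each cell type. Genes named outside this rule (Zmynd15, Cxcr2, Cxcr1, Ackr1, Dpp4, Mmp9 and the undetected cluster genes) were chosen after their values were seen. Poisson intervals are exact at 95%. Retained-intron types, introns and 3′ UTRs are from GENCODE M21. Alternatives were the alignment-free table, rescaled TPM, CPM, other pseudocounts and limits, TMM (edgeR 4.0.16) and DESeq2 1.42.0 size factors on rounded counts, and each library alone. Python 3.11.15 and R 4.3.3 were used.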

Additional observations from a re-analysis of the deposited data

How the results depend on the processing

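The number of detected members was 6 under every alternative tried: the alignment-free table, limits of 5 TPM or of 10 counts, and either library alone. The median level, 5.57 on the log2(TPM + 1) scale, was 4.14 in the alignment-free table, 6.09 with TPM rescaled after leaving out mitochondrial genes and genes under 200 bases, and 5.87 over members with at least 10 counts in both libraries. With each library alone it ranged from 5.41 to 5.74. The median replicate difference, 0.51, was 0.63 with DESeq2 size factors, 0.09 with no subtraction of the median, 0.09 in the alignment-free table and 0.34 with no filter on counts. The members beyond 2-fold numbered 0 with no subtraction of the median and 0 in the alignment-free table, against 1. The cause of these shifts was not tested. Over the 14584 countable genes, those beyond 2-fold numbered 249, or 1.71%. They numbered 742 with TMM, 743 with DESeq2, 570 with no subtraction and 685 with a pseudocount of 0.1 TPM. These are 5.09%, 5.09%, 3.91% and 4.7% of the same genes, in that order. With no filter on counts they were 905 of 31898 genes, or 2.84%. They were 1317 of 23020 genes, or 5.72%, in the alignment-free table. The retained-intron share, 59.1% of counts, was 50.6% as a share of TPM and 61.4% in the alignment-free table, and ranged from 57.7% to 60.5% with each library alone. No paired analysis was possible because both libraries belong to 1 group. The alignment-free table with rescaled TPM was chosen after seeing the data. Cxcl3 and Cxcl9 rest on 2 to 13 counts, which limits their order and their ratios.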

Other observations

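Other genes of the lists were read in the same way. Markers of other cell types were low: of 5 dendritic markers 0 were detected, the highest being Zbtb46 with 1.21 and 0.53 TPM, of 6 lymphoid markers 0, the highest being Ms4a1 with 0.34 and 0.02 TPM, and of 5 fibroblast markers 0, the highest being Dcn with 2.71 and 0 TPM. Cxcr2 and Cxcl11 had, as Cxcl9 did, many more counts in the alignment-free table than in the gene table, 70.4 and 51.1 times for Cxcr2 and 28.4 and 7.53 times for Cxcl11. Both had at most 8 counts per library in the gene table, and which table is nearer the truth was not tested.

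The transcript Cxcl2-202, which keeps the third intron and is typed protein-coding, had 1160.2 and 1215 counts with a posterior standard deviation of 138 and 133, and lies outside the retained-intron share given above. In Cxcr4 the shorter transcript Cxcr4-202 had 25.2 counts in replicate 1 and 0 in replicate 2, with a posterior standard deviation of 10.8 and 10.7. In Pf4 the short protein-coding transcript Pf4-203 took 34.3% and 20.7% of the gene's TPM, and the retained-intron transcript Pf4-202 took 25.1% and 33.9%.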
